A study of Mus musculus with 5 samples.

Results

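The genes described here are 9 cathepsins (Ctsb, Ctsc, Ctsd, Ctse, Ctsh, Ctsk, Ctsl, Ctss and Ctsz) and Acp2, which encodes lysosomal acid phosphatase. They were taken by gene symbol from the annotation of the array, with every probe set that carried only that symbol, which gave 10 genes of 18193 named on the array and 23 probe sets of 45101. The genes were chosen by earlier results on these arrays, the signals of KA/KA against WT arrays inside each of the array sets below. What follows therefore describes their values, and the size of a difference is no evidence of its own. Of 5 arrays, 3 are labelled KA/KA, for mice with both copies of the IKKα gene replaced by a kinase-dead form (allele K44A), and 2 are labelled as wild-type littermates (WT). IKKα is a kinase that activates the alternative NF-κB pathway. All mice were 4 weeks old and on the FVB background, and the RNA is labelled as coming from bone marrow cells enriched with magnetic beads for B220, a surface form of CD45 on developing B cells. The labels name no cell type or promoter to which the knock-in was limited. They also leave unsaid how many animals gave the RNA of an array, and errors below measure only the spread between arrays.

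Cathepsins are proteases of the endosome and lysosome. Most are cysteine proteases of the papain family, made as inactive precursors that are cut to their active form in acid compartments, and Ctsd and Ctse are aspartic proteases. They break down proteins taken up from outside or delivered by autophagy, and in antigen-presenting cells some of them trim the invariant chain that occupies MHC class II molecules. Macrophages hold large amounts of several cathepsins, and alveolar type 2 cells of the lung use Ctsh while they process surfactant proteins.

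On 3 of the 5 arrays the signals went against the labelled cell type. Lung-like is used here for the libraries with the labels KA/KA 2, KA/KA 3 and WT 2, and marrow-like for KA/KA 1 and WT 1. The sets were divided by their poly-A control signals (median log2 signal of 24 control probe sets from 5.97 to 8.05 on the lung-like and from 12.84 to 13.54 on the marrow-like arrays), and they are not groups of the study. The lung-like arrays carried surfactant genes at high signal, with a summed signal of 7 measured alveolar type 2 markers from 82608 to 150508, against 4388 to 4608 on the marrow-like arrays. Their B lineage signal was low: the sum over 8 measured B lineage markers ran from 1127 to 2993, against 44948 to 55823 on the marrow-like arrays, and Rag1, a gene of developing lymphocytes, read 4.09 to 4.10 there, against 12.79 to 12.80 on the marrow-like arrays. A value of 4 is the lowest that the scale used here, log2(signal + 16), can give. The marrow-like arrays carried neutrophil genes as well: 8 neutrophil markers summed to 101401 on KA/KA 1 and 152389 on WT 1, with 31877 on KA/KA 2 and 69304 on KA/KA 3, against 5916 on WT 2. On KA/KA 2 and KA/KA 3 these sums rest mainly on S100a8 (13.98 and 15.21) and S100a9 (13.81 and 14.87). The next brightest marker there, Ltf, read 10.25 and 9.27, against 10.80 on WT 2. Cardiac muscle genes were present on WT 2 above all, where 4 of them summed to 40840, with 1154 on KA/KA 2 and 8703 on KA/KA 3, and 182 and 172 on KA/KA 1 and WT 1. Sex-linked transcripts differed by array too. Xist, the transcript of the inactive X chromosome, read 13.93 on KA/KA 2 and 12.48 on KA/KA 1, against 6.49 to 7.67 on the other arrays. The Y-linked Eif2s3y was low on KA/KA 2 alone (4.78) and read 10.41 to 11.37 on the others, so KA/KA 1 carried both signals. The part of these cell type and sex-linked signals in the values below was not tested, and in bulk RNA fewer cells of a type and less RNA per cell cannot be told apart. The arrays measure transcript level and do not check the labels for a kinase-dead allele.

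All 10 genes were above the filter on dim probe sets, through at least 1 probe set each, and 22 of the 23 probe sets were. On the lung-like arrays every one of the 10 genes read higher on KA/KA 2 and on KA/KA 3 than on WT 2, where 33.4% of the 11392 genes tested did so (one brightest probe set per gene). Taken singly, KA/KA 2 was above WT 2 for 10 of 10 (47% of all genes), and by over 1 log2 unit for 9 (8.13%). Both differences passed 1 log2 unit for 6 of the 10 (3.83% of all genes), while 0 of the 10 were lower by that much on both (1.76%). In the marrow-like pair 3 of the 10 read higher on KA/KA 1 than on WT 1 (56.8% of all genes), and none differed by over 1 log2 unit (2.83% of all genes were higher and 1.58% lower by that much). The other 7 were lower on KA/KA 1 and higher on both lung-like KA/KA arrays (17.4% of all genes), and the 3 were higher in all these comparisons (16%). Acp2, Ctsc and Ctsd were the genes whose 3 KA/KA values all lay above both WT values (3 of 10, against 4.12% of all genes), and for none of the 10 did all KA/KA values lie below both WT values (2.66%). These contrasts are the ones by which the list was drawn up, so the shares of all genes are given for scale and nothing is read from the counts.

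Differences in these data moved with the level of a gene, and most cathepsins are bright. The highest signal was 38918 on KA/KA 2 and 40821 on KA/KA 3, against 21977 on WT 2, and 26811 on KA/KA 1, against 40635 on WT 1, although each array had the same trimmed mean. Among the 237 genes of the brightest class (mean log2 signal of 13 or more), 87.8% read higher on both lung-like KA/KA arrays than on WT 2, with a median difference of 0.56. In the same class 89.0% read lower on KA/KA 1 than on WT 1, with a median of -0.46. Among the 2705 genes with a mean of 9 to 10 the share higher on both lung-like KA/KA arrays was 28.7% and the medians were -0.084 and 0.15. Ctsb, Ctsc, Ctsd, Ctsl, Ctss and Ctsz lie in the brightest class, Ctsh in the class below it, and Acp2 in the class of 9 to 10. On the lung-like arrays each of the 10 lay above the upper quartile of its own level class. In the marrow-like pair Acp2, Ctsc and Ctsd did so, and Ctsl lay below the lower quartile. The list was drawn up on these contrasts, so nothing is read from these positions. Genes are also given after quantile normalisation, which gives all arrays the same distribution of signals. The source of these differences between distributions was not tested.

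**Figure D1:**
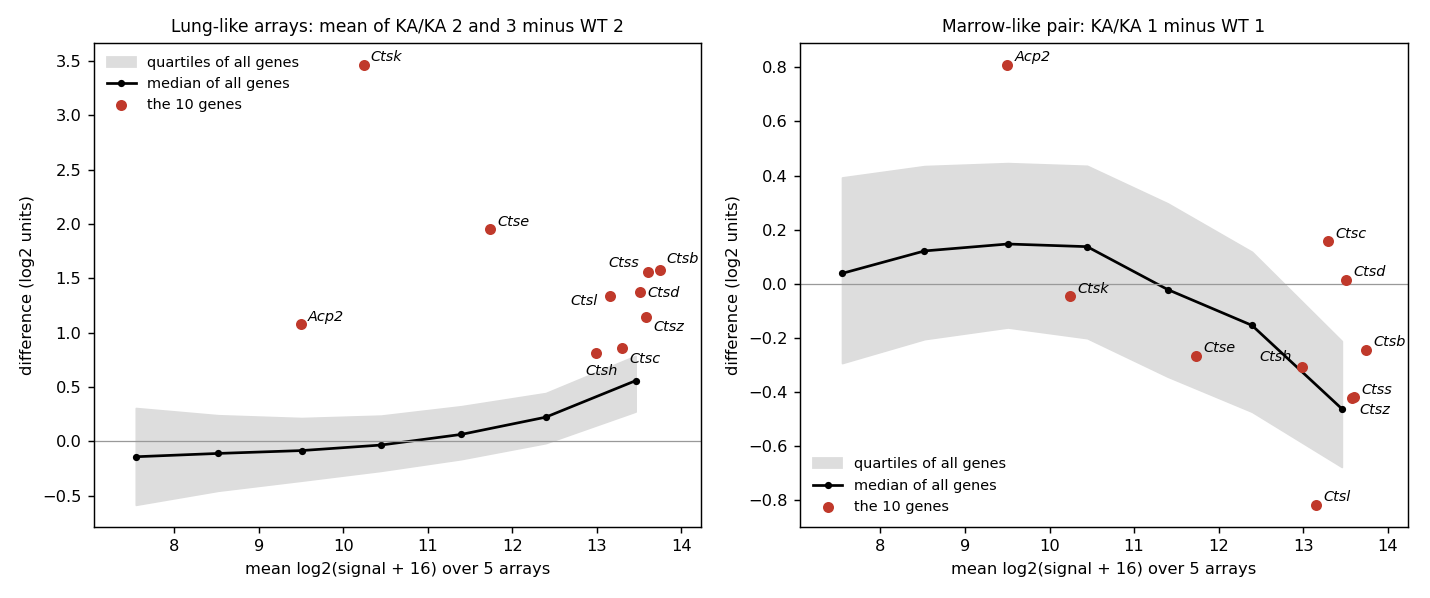
Difference between genotype labels plotted against the mean log2(signal + 16) over 5 arrays, for the lung-like arrays (left, mean of KA/KA 2 and KA/KA 3 minus WT 2) and the marrow-like pair (right, KA/KA 1 minus WT 1). The black line is the median and the grey band the quartiles of all 11392 genes in classes of level, and red points are the 10 genes; the medians of the brightest class are 0.56 on the left and -0.46 on the right, and Acp2 lies above the band in both panels.

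Acp2, a phosphatase of the lysosome that removes phosphate groups at acid pH, had the most positive marrow-like difference of the 10 and the same direction in both sets. It read 9.97 on KA/KA 2 and 10.01 on KA/KA 3, against 8.91 on WT 2, and 9.70 on KA/KA 1, against 8.89 on WT 1. The 3 KA/KA arrays lay close together and the 2 WT arrays closer still, with no overlap. The mean was 9.90 ± 0.17 on the KA/KA arrays (SD, n = 3) and 8.90 ± 0.017 on the WT arrays (SD, n = 2). Signals on the lung-like arrays were 2.09 times (KA/KA 2) and 2.14 times (KA/KA 3) that of WT 2, and in the marrow-like pair the ratio was 1.75, all on the signal + 16 scale.

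The other probe sets of Acp2 also had KA/KA above WT, while the order among the KA/KA arrays differed. In the second, KA/KA 2 and KA/KA 3 read 10.11 and 9.43, against 9.18 on WT 2, and KA/KA 1 read 9.57, against 8.64 on WT 1. In the third they read 9.77 and 9.25, against 8.67 on WT 2, and KA/KA 1 read 9.13, against 8.60 on WT 1. All 3 probe sets thus had every KA/KA array above both WT arrays, although the second did so by 0.25 log2 units at its closest. Against genes of the same level, Acp2 stood 1.16 above the class median on the lung-like arrays and 0.66 above it in the marrow-like pair, and it was over the upper quartile in both. After quantile normalisation the differences were 1.18 and 1.20 on the lung-like arrays and 0.66 in the pair.

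limma (2-group fit over all 11392 genes, Benjamini-Hochberg adjustment) put Acp2 at a KA/KA minus WT difference of 0.99 ± 0.31 log2 units (SE; 3 and 2 arrays) with an adjusted p = 0.9999. No gene of the table passed an adjusted p of 0.05 in that fit (0%), and 25 genes (0.219%), Acp2 among them and none of the 9 cathepsins, had an unadjusted p under 0.05. In limma's fit blocked on array set the estimate was 0.96 ± 0.25 and the adjusted p = 0.9989. There too 0% of genes passed. An unadjusted p under 0.05 was reached by 2.73% of genes (1.79% higher on the KA/KA arrays), and again by Acp2 as the one member. Leaving out each array in turn kept the 5-array estimate for Acp2 between 0.94 and 1.09.

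The genes whose values over the 5 arrays were most like those of Acp2, by the root mean square difference after centring each gene on its mean, were Relb (0.12 log2 units), H2-Q5 (0.12) and Tnfrsf1b (0.14). Relb encodes an NF-κB subunit, H2-Q5 an MHC class I-type molecule and Tnfrsf1b a receptor for tumour necrosis factor. Relb read 9.53 and 9.91 on KA/KA 2 and KA/KA 3, against 8.52 on WT 2, and 9.44 on KA/KA 1, against 8.62 on WT 1. H2-Q5 belongs to a family of near-identical genes, so its signal is uncertain. Likeness was sought among 11392 genes over 5 arrays and was not tested.

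The promoters of 7 of the 10 genes (Acp2, Ctsc, Ctsd, Ctsk, Ctsl, Ctss and Ctsz) were matched by symbol in RefSeq (GRCm38.p6). Below are the 250 bases before the start of Acp2, which kept its direction in both sets, of Ctsk, which differed most, and of Ctsd, an aspartic protease that held the longer form of the E-box to which TFEB, a regulator of lysosomal genes, binds. Each is written 5′ to 3′ on the strand of the gene. Capitals mark GGGCGG (GC box) on either strand in Acp2 and CACGTG or TCACGTGA in Ctsd, and no capitals are set in Ctsk, where none of the 5 motifs searched was found.
Acp2 (chr2:91202662-91202911, + strand): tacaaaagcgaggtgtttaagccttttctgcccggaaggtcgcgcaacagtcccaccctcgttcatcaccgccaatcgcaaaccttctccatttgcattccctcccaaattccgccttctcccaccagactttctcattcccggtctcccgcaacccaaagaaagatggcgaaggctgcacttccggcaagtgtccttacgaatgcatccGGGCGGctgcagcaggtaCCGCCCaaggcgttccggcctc
Ctsk (chr3:95498960-95499209, + strand): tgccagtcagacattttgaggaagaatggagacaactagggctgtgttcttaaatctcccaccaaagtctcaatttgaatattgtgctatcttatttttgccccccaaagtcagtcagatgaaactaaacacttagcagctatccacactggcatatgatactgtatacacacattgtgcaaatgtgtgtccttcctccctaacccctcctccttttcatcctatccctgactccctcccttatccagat
Ctsd (chr7:142387828-142388077, - strand): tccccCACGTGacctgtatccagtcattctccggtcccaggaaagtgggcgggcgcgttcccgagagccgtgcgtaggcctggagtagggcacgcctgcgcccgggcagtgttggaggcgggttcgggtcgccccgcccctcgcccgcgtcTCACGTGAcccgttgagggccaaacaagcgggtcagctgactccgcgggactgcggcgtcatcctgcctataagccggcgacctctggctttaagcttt
Over these windows CACGTG, which reads the same on both strands, was found in 2 of the 7 genes (Ctsd and Ctsl) and in 6.02% of 32851 promoters. TCACGTGA, which contains CACGTG, was in Ctsd, from position -99 to -92 relative to the start, and in 0.785% of promoters. GGGCGG was found in 5 of the 7 (32.7% of promoters) and at 2 places in Acp2, from -40 to -35 and from -22 to -17, while GAGGAAGT, a PU.1-type motif, was found in Ctsc (2.44%). A κB-type motif was in none of the 7 and in 1.41% of promoters. Both strands were searched for each motif.

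**Figure D2:**
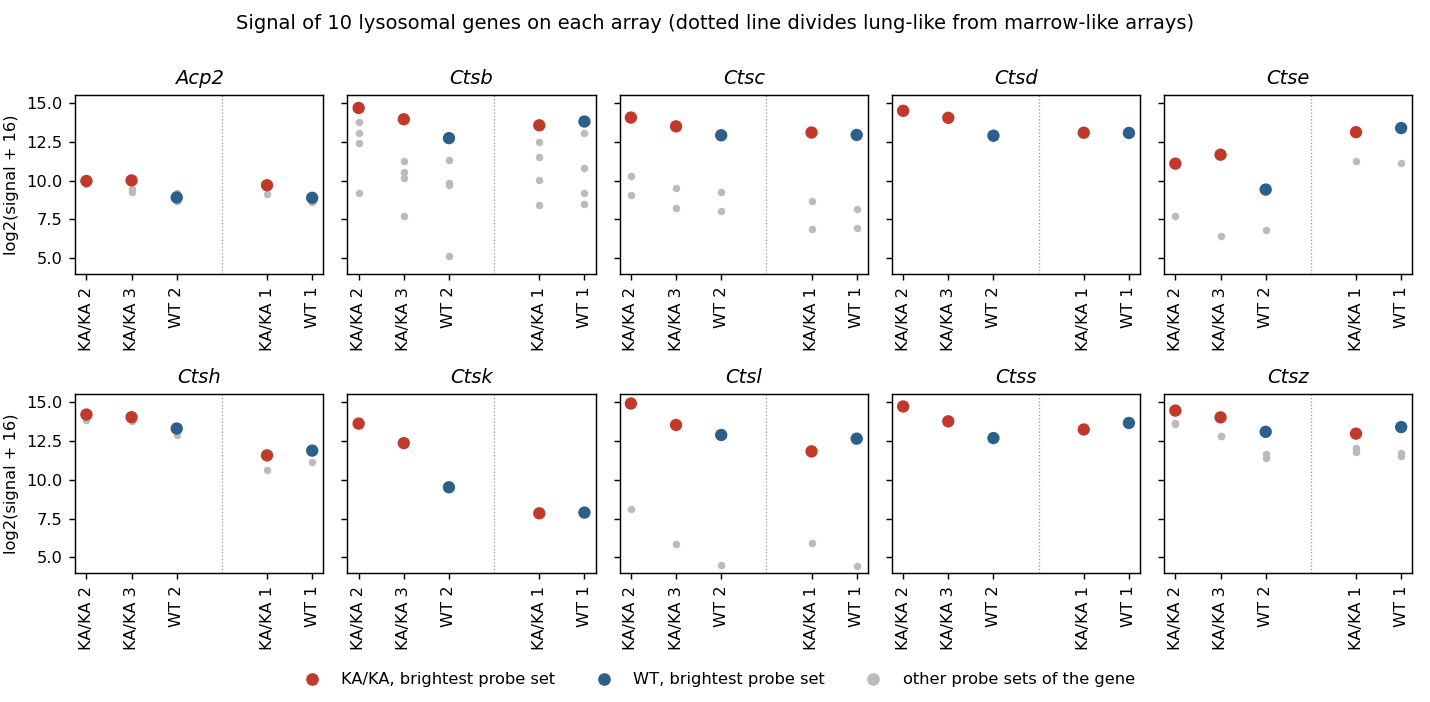
Signal of each of the 10 genes on every array, as log2(signal + 16), with the lung-like arrays left of the dotted line and the marrow-like arrays right of it. Coloured points are the brightest probe set of the gene (red for KA/KA, blue for WT) and grey points its other probe sets; in the lung-like set the red points lie above the blue point in all 10 panels, and in the marrow-like set in 3 of them.

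Ctsd, the main aspartic protease of the lysosome, had a single probe set. It read 14.49 on KA/KA 2 and 14.04 on KA/KA 3, against 12.89 on WT 2, while the marrow-like arrays were almost equal, with 13.08 on KA/KA 1 and 13.06 on WT 1. The KA/KA and WT values did not overlap over the 5 arrays, but in the marrow-like pair they were parted by 0.016 log2 units. The ratio to WT 2 was 3.04 for KA/KA 2 and 2.22 for KA/KA 3. The mean lung-like difference was 1.38, and 0.96 after quantile normalisation, where the difference in the pair was 0.29.

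Ctse, the other aspartic protease, is found in endosomes of immune cells and of some epithelia, and it was the only one of the 10 that was lower on all lung-like arrays. It read 11.09 on KA/KA 2 and 11.66 on KA/KA 3, against 9.42 on WT 2, and 13.11 on KA/KA 1, against 13.38 on WT 1. The mean over the lung-like arrays was 10.73 ± 1.16 (SD, n = 3) and over the marrow-like arrays 13.25 ± 0.19 (SD, n = 2), a difference of -2.52. Its second probe set was lower on the lung-like arrays too, with 7.70 on KA/KA 2, 6.46 on KA/KA 3 and 6.81 on WT 2, while KA/KA 1 read 11.23 and WT 1 read 11.10, but there KA/KA 3 was under WT 2. The higher reading of KA/KA 3 thus rested on 1 probe set. The mean lung-like difference of the brightest probe set was 1.89 above the median of its level class, and it was 2.06 after quantile normalisation and 1.95 before it.

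The cysteine endopeptidases Ctsb, Ctsk, Ctsl and Ctss cut inside protein chains, and Ctsb also trims dipeptides from the end. Ctsk, the collagen-degrading protease of osteoclasts, which is also made by fibroblasts and some macrophages, showed the widest range of the 10. It read 13.61 on KA/KA 2 and 12.36 on KA/KA 3, against 9.51 on WT 2, and 7.84 on KA/KA 1, against 7.89 on WT 1. The lung-like KA/KA arrays were 17.1 and 7.16 times WT 2, whereas the marrow-like arrays differed by -0.046 log2 units. Every lung-like array was above both marrow-like arrays (mean 11.83 ± 2.10, SD, n = 3, against 7.86 ± 0.033, SD, n = 2). Quantile normalisation left the lung-like difference at 3.48, against 3.47 before it, and the block fit of limma gave 1.96 ± 0.82 with an adjusted p = 0.9989.

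Markers of cell types that make Ctsk differed between the lung-like arrays as well, and their part in its values was not tested. Of 6 fibroblast markers, 0 were higher on both KA/KA arrays than on WT 2 (33.4% of all genes). Their summed signal was 51857 on KA/KA 2 and 20638 on KA/KA 3, against 32780 on WT 2. Of 6 osteoclast markers 2 were measured above the filter, Acp5, a phosphatase shared with macrophages, and the proton pump subunit Atp6v0d2, and they summed to 14632 and 5997 on KA/KA 2 and KA/KA 3, against 1627 on WT 2. Acp5 read 12.31 and 11.33 on KA/KA 2 and KA/KA 3, against 9.06 on WT 2, and 11.54 on KA/KA 1, against 11.49 on WT 1. The other 4 osteoclast markers, Oscar, Calcr, Ocstamp and Dcstamp, gave no value above the filter.

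Ctss, a protease of antigen-presenting cells that works on the invariant chain, read 14.71 on KA/KA 2 and 13.76 on KA/KA 3, against 12.68 on WT 2. In the marrow-like pair it read 13.23 on KA/KA 1 and 13.65 on WT 1, so KA/KA 1 was lower. The ratio to WT 2 was 4.10 and 2.11. The difference in the pair lay 0.042 from the median of genes of this level, and it was -0.087 after quantile normalisation.

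Ctsb had 5 probe sets, which differed in order. In the brightest, KA/KA 2 read 14.67 and KA/KA 3 13.94, against 12.73 on WT 2, and KA/KA 1 read 13.55, against 13.80 on WT 1. KA/KA 2 was above WT 2 in all 5, by 1.94 to 4.07 log2 units. KA/KA 3 was above it in 4, by up to 2.56, and below it in the second (difference -0.088). Both upper ends, 4.07 and 2.56, came from the dimmest probe set, where WT 2 read 5.14, near the lowest value of the scale. Among the other probe sets the largest differences were 3.34 for KA/KA 2 and 1.21 for KA/KA 3. In the marrow-like pair 2 probe sets were higher on KA/KA 1, by 0.75 and 0.77, and 3 were lower, so the pair gave no common direction for Ctsb. After quantile normalisation the brightest was higher on KA/KA 1 by 0.14, where without it the difference was -0.24.

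Ctsl, a protease that also cuts the invariant chain in thymic epithelium, read 14.90 on KA/KA 2 and 13.52 on KA/KA 3, against 12.88 on WT 2. On the marrow-like arrays it read 11.82 on KA/KA 1, against 12.64 on WT 1, the most negative difference among the 10 in that pair (-0.82, or -0.35 from the median of its level class). Its second probe set, the one below the filter, went the opposite way in the pair, with 5.94 on KA/KA 1 and 4.47 on WT 1, the WT value being close to the lowest the scale allows. All lung-like arrays were above both marrow-like arrays in the brightest probe set, by 1.54 in the mean.

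The exopeptidases Ctsc, Ctsh and Ctsz take residues from the ends of proteins. Ctsc, which activates the serine proteases of neutrophil, mast cell and cytotoxic lymphocyte granules, read 14.05 on KA/KA 2 and 13.49 on KA/KA 3, against 12.91 on WT 2, and 13.09 on KA/KA 1, against 12.93 on WT 1. The KA/KA arrays were above both WT arrays, with means of 13.54 ± 0.48 (SD, n = 3) and 12.92 ± 0.015 (SD, n = 2). That separation was lost after quantile normalisation, where KA/KA 1 read 13.17 and WT 2 read 13.18. Its other probe sets overlapped between the genotype labels before any normalisation.

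Ctsh, an aminopeptidase, read 14.19 on KA/KA 2 and 14.02 on KA/KA 3, against 13.29 on WT 2, and 11.57 on KA/KA 1, against 11.87 on WT 1. All lung-like arrays were above both marrow-like arrays in both probe sets, by 2.12 in the mean of the brightest. The genotype difference on the lung-like arrays was 0.81 in the mean, the smallest of the 10, and 0.33 after quantile normalisation. Alveolar type 2 markers were higher on both lung-like KA/KA arrays for 7 of 7 measured genes (33.4% of all genes). Their medians were 0.85 on KA/KA 2 and 0.63 on KA/KA 3. After quantile normalisation 2 of 7 were higher on both (34.7%).

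Ctsz, a carboxypeptidase, read 14.45 on KA/KA 2 and 14.01 on KA/KA 3, against 13.08 on WT 2, and 12.96 on KA/KA 1, against 13.39 on WT 1. Its 3 probe sets gave the same direction on the lung-like arrays, with differences of 0.93 to 2.19. In the marrow-like pair the brightest was lower on KA/KA 1 (difference -0.42), while the other 2 were higher on KA/KA 1 by 0.30 and 0.27. Those 2 had all KA/KA arrays above both WT arrays, and the brightest did not.

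**Figure D3:**
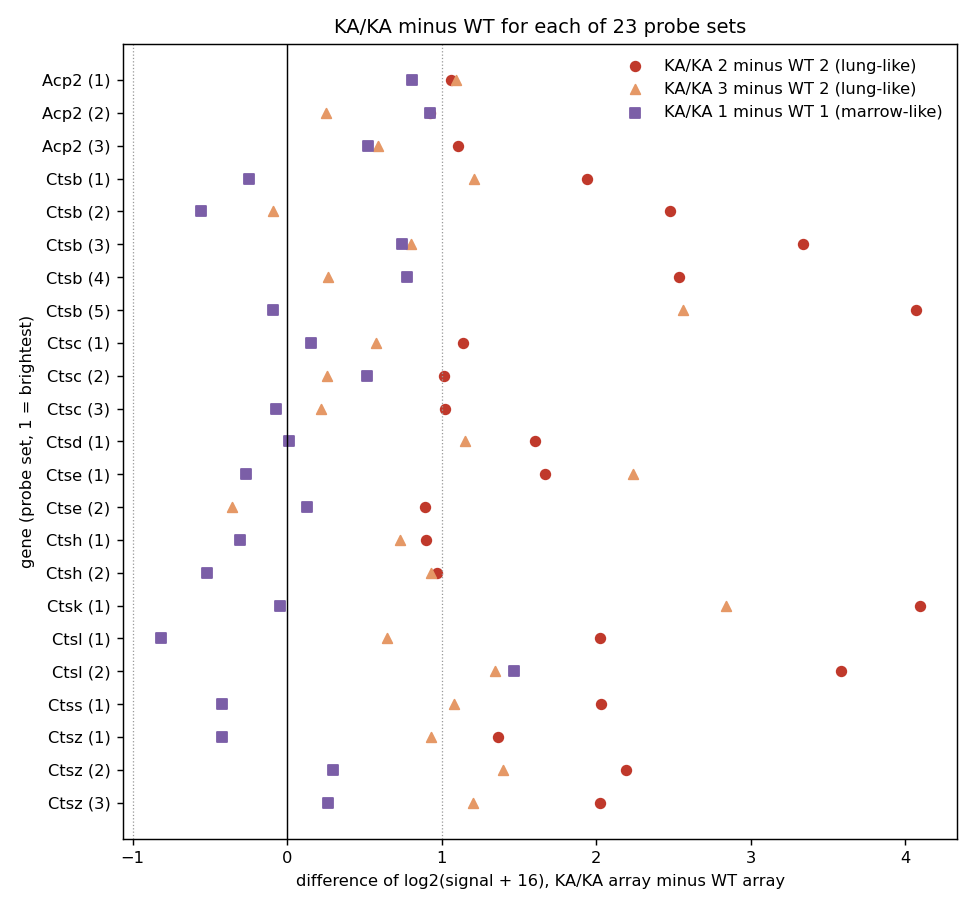
KA/KA array minus WT array, as a difference of log2(signal + 16), for each of the 23 probe sets of the 10 genes, numbered from the brightest of each gene; dotted lines mark 1 log2 unit in either direction. KA/KA 2 minus WT 2 (red circles) is above 0 for 23 probe sets, KA/KA 3 minus WT 2 (orange triangles) for 21 and KA/KA 1 minus WT 1 (violet squares) for 12.

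Over all 23 probe sets the difference ran from 0.89 to 4.09 for KA/KA 2 minus WT 2, with a median of 1.67, and from -0.35 to 2.84 for KA/KA 3 minus WT 2, with a median of 0.93. For KA/KA 1 minus WT 1 it ran from -0.82 to 1.47, with a median of 0.016. KA/KA 2 was the higher of the lung-like KA/KA arrays for 21 of 23 probe sets and for 8 of 10 genes (46.5% of all genes), the exceptions being Acp2 and Ctse. KA/KA 2 also differed from the other lung-like arrays in Xist and in squamous epithelial genes, 3 of which summed to 27604 on KA/KA 2, against 279 on KA/KA 3 and 241 on WT 2. KA/KA 3 and WT 2 were alike in Xist (7.22 and 7.67) and Eif2s3y (10.53 and 10.41). They differed in summed cardiac muscle (8703 against 40840), neutrophil (69304 against 5916) and macrophage markers (79108 against 27584). Between KA/KA 3 and WT 2 all 10 genes read higher on KA/KA 3 (49.1% of all genes), 6 of them by over 1 log2 unit (5.92%). The part of any of these signals in the 10 genes was not tested.

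Between the sets, Ctsh, Ctsk and Ctsl were higher on every lung-like array than on both marrow-like arrays by over 1 log2 unit in the mean (3 of 10, against 23.1% of all genes), and Ctse was lower (1 of 10, against 13.7%). Without a minimum size 35.4% of all genes were higher and 30.5% lower on all lung-like arrays. The other 6 genes overlapped between the sets. Their mean differences (lung-like minus marrow-like) were 0.11 for Ctsb, 0.28 for Ctss, 0.34 for Acp2, 0.47 for Ctsc, 0.67 for Ctsz and 0.73 for Ctsd. Ctsb and Ctss had WT 2 as their lowest array and KA/KA 2 as their highest, with the marrow-like arrays between, and for Ctsd WT 2 was the lowest as well. No test was made between the sets, since they were set apart by measured values.

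Macrophage genes moved with the cathepsins on the lung-like arrays. Of 11 macrophage markers all were higher on both KA/KA arrays than on WT 2 (33.4% of all genes), 8 by over 1 log2 unit (3.83%). The medians over the 11 markers were 2.33 for KA/KA 2 and 1.71 for KA/KA 3. After quantile normalisation all 11 were higher on both (34.7% of all genes), with medians of 2.35 and 1.79. Without it, the summed signal of the markers was 110543 on KA/KA 2 and 79108 on KA/KA 3, against 27584 on WT 2. It was 70140 on KA/KA 1, against 66557 on WT 1. Cd68, a lysosomal membrane protein of macrophages, read 13.79 and 12.44 on KA/KA 2 and KA/KA 3, against 10.70 on WT 2, and 11.70 on KA/KA 1, against 11.66 on WT 1. The complement gene C1qa read 13.34 and 12.42, against 9.94 on WT 2, and 13.17 on KA/KA 1, against 13.12 on WT 1. Marco, a scavenger receptor of macrophages, was the one marker close to the lowest value of the scale on any array, with 4.81 on KA/KA 2 and 10.35 on KA/KA 3, against 4.64 on WT 2. In the pair 10 of the 11 macrophage markers read higher on KA/KA 1 (56.8% of all genes), with a median of 0.28. Of the cathepsins and Acp2, 3 of 10 did so. Csf1r, the receptor for macrophage colony-stimulating factor, read 12.91 on KA/KA 1, against 12.13 on WT 1. Neutrophil markers differed on the same arrays too, with 4 of 8 higher on both KA/KA arrays than on WT 2 (medians 0.18 and 1.67). Among them S100a8, a calcium-binding protein of neutrophils, read 13.98 and 15.21 on KA/KA 2 and KA/KA 3, against 11.16 on WT 2. Ltf was the 1 neutrophil marker lower on both, with 10.25 and 9.27, against 10.80 on WT 2. Elane, Mpo and Prtn3 were lower on KA/KA 2 and higher on KA/KA 3 than on WT 2. The part of macrophage and neutrophil content in the cathepsin and Acp2 values was not tested.

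Further genes of the lysosome were read from lists chosen with these data known. For each list below the shares over all genes are the same. Of all genes 33.4% read higher on both lung-like KA/KA arrays, and 56.8% read higher on KA/KA 1 than on WT 1. Of 11 other cathepsins and lysosomal proteases, 8 were higher on both lung-like KA/KA arrays, with medians of 1.08 (KA/KA 2) and 0.42 (KA/KA 3), and -0.011 in the marrow-like pair. The medians over all genes were -0.040, -0.0090 and 0.080 in the same order. Ctsa, a carboxypeptidase that also protects other lysosomal enzymes, read 13.31 and 12.51 on KA/KA 2 and KA/KA 3, against 11.68 on WT 2, and 12.07 on KA/KA 1, against 11.94 on WT 1. Ctsg, a serine protease of neutrophil granules that shares only the name, read 5.48 and 6.56 on KA/KA 2 and KA/KA 3, against 4.40 on WT 2, and 11.19 on KA/KA 1, against 12.10 on WT 1. Legumain (Lgmn), which cuts several cathepsin precursors, read 13.74 and 12.03, against 11.61 on WT 2, and 10.97 on KA/KA 1, against 10.98 on WT 1. Ctsa and Lgmn thus read higher on both lung-like KA/KA arrays and differed little in the pair.

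Of the cathepsin inhibitors listed, 7 of 11 were measured above the filter, of which 6 read higher on both lung-like KA/KA arrays (medians 0.78 and 1.01) and 0 read higher on KA/KA 1 than on WT 1 (median -0.63). After quantile normalisation 5 of the 7 were higher on both lung-like KA/KA arrays (34.7% of all genes), and the medians were 0.39, 0.86 and, in the pair, -0.31. Cystatin B (Cstb), an inhibitor inside cells, read 14.21 and 13.69 on KA/KA 2 and KA/KA 3, against 12.58 on WT 2, and 12.27 on KA/KA 1, against 12.93 on WT 1. The list of lysosomal hydrolases other than cathepsins had 24 measured genes, among them the saposin precursor Psap, which is not a hydrolase. Of these, 15 read higher on both lung-like KA/KA arrays (medians 0.64 and 0.17) and 18 on KA/KA 1 (median 0.26). Glb1, Gusb, Man2b1, Lipa and Gla, of sugar and lipid breakdown, were the 5 of these 24 whose KA/KA arrays all lay above both WT arrays, as did 4.12% of all genes. For Gla the gap was 0.00081 log2 units, between KA/KA 1 and WT 1. Lipa, the acid lipase, read 12.97 and 12.31 on KA/KA 2 and KA/KA 3, against 11.38 on WT 2, and 11.80 on KA/KA 1, against 11.28 on WT 1.

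Proton pump subunits, which acidify the lysosome, read higher on both lung-like KA/KA arrays for 13 of 15 genes (medians 0.98 and 0.46), and for 6 of 15 on KA/KA 1 (median -0.22). The shares over all genes were 33.4% and 56.8%. Most of these subunits had a mean log2 signal above 11. Of all genes with a mean of 11 to 12, 40.8% read higher on both lung-like KA/KA arrays. That share was 59.3% for 12 to 13 and 87.8% for the brightest class. After quantile normalisation 13 of the 15 subunits were higher on both (34.7% of all genes). Their medians were then 0.75 and 0.31, and -0.13 in the pair. The shares of the same 3 classes were then 39.4%, 42.4% and 42.1%. Atp6v1b2, a subunit of the part that binds ATP, read 12.54 and 11.61 on KA/KA 2 and KA/KA 3, against 11.39 on WT 2, and 11.52 on KA/KA 1, against 11.30 on WT 1. Atp6v1d, a subunit of the stalk, read 11.83 and 11.67 on KA/KA 2 and KA/KA 3, against 11.37 on WT 2, and 11.63 on KA/KA 1, against 11.43 on WT 1. Both had every KA/KA array above both WT arrays, as 2 of the 15 (4.12% of all genes). In the list of lysosomal membrane proteins, which also holds the soluble Npc2, 7 of 11 read higher on both lung-like KA/KA arrays (33.4% of all genes). The medians were 0.65 and 0.56, and after quantile normalisation 5 of 11 were higher on both (34.7%). Of 12 genes of lysosomal sorting and transcription, 6 read higher on both (medians 0.39 and 0.054). Among these, the regulator Tfeb read 8.44 and 8.61 on KA/KA 2 and KA/KA 3, against 8.01 on WT 2, and 10.01 on KA/KA 1, against 9.42 on WT 1. None of the genes of these lists passed limma's test in either fit.

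**Figure D4:**
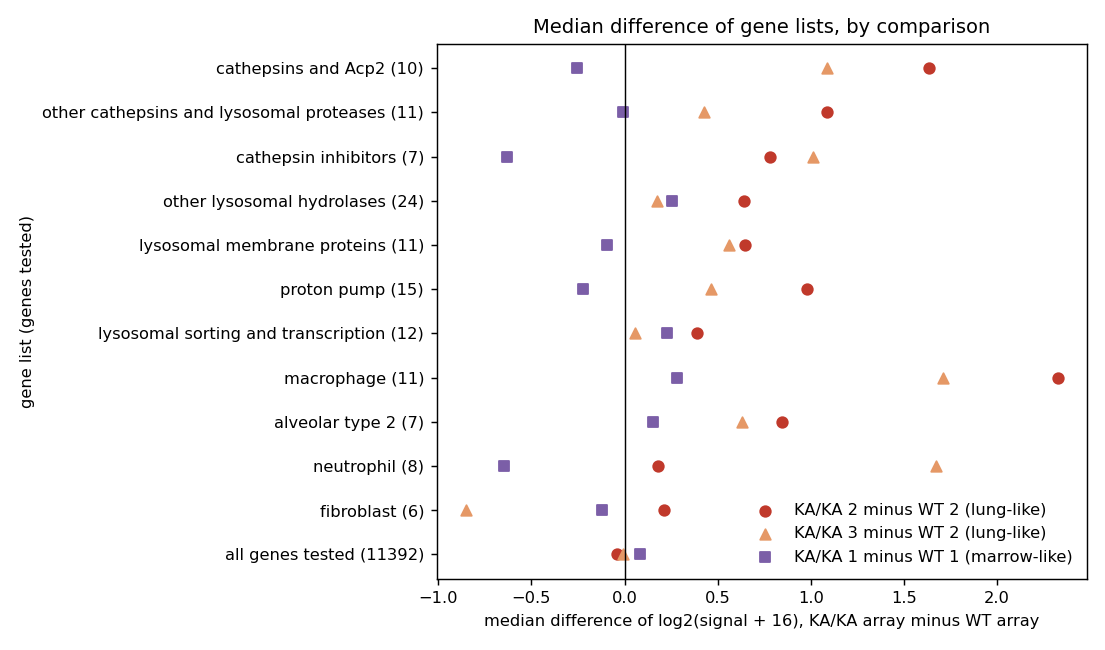
Median difference (KA/KA array minus WT array, log2(signal + 16)) of each gene list, with the number of genes tested in brackets, for both lung-like comparisons (red circles and orange triangles) and the marrow-like pair (violet squares). The cathepsins and Acp2 stand at 1.63, 1.09 and -0.25, macrophage markers at 2.33, 1.71 and 0.28, and all genes at -0.040, -0.0090 and 0.080.

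After quantile normalisation all 10 genes still read higher on both lung-like KA/KA arrays than on WT 2, where 34.7% of 11394 genes did, with medians of 1.34 and 0.78. Acp2, Ctse and Ctsk stayed over 1 log2 unit on both, 3 of 10 (4.27% of all genes), where 6 had been so before it. In the brightest class the share of all genes higher on both was 42.1%, against 87.8% without it, and all 6 members of that class read higher under both scales. The list was drawn up on this contrast, so nothing is read from that count. In the marrow-like pair 5 of the 10 were then higher on KA/KA 1 and 5 lower, with a median of -0.028. The genes whose KA/KA arrays all lay above both WT arrays were then Acp2, Ctsb and Ctsd (4.15% of all genes).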

How the data were processed

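RNA was hybridised to Affymetrix mouse expression arrays from 150 ng of total RNA, per the labels' protocols. The authors deposited 1 intensity per probe set for each array, made with MAS5 per the submitters' processing notes. Its version and settings are not given in the sources used here. The series text speaks of log2 values, but the deposited intensities are linear, with a trimmed mean of 500.0 on each array (2% left out at each end). log2(signal + 16) was computed from them without further scaling. No counts or detection calls are involved, so the number of arrays limits the precision. Probe sets with 1 gene symbol in the platform annotation were named. For the fits, the 64 control probe sets and probe sets whose mean log2 signal was under the median over probe sets (7.04) were left out, and the brightest probe set stood for its gene (11392 genes). The 10 genes, the further lists, the array sets and the tests were chosen with earlier results of these data known; no test is made between the array sets or inside them.

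limma 3.58.1 in R 4.3.3 fitted genotype over 5 arrays, once without a block and once blocked on array set. Variances were moderated by eBayes with a trend on intensity, and two-sided p-values were adjusted by Benjamini-Hochberg across the whole gene table. An exact permutation test of 3 against 2 arrays cannot go below 0.1 and was not run. The fits were tested on simulated data. Named were the 10 genes and, of each further list, up to 3 genes with the largest blocked difference among those whose KA/KA arrays all lay on 1 side of both WT arrays; Ctsg, Lgmn, Cstb, Tfeb, Acp5, S100a8, Glb1, Man2b1, the markers and the sex-linked genes were named after their values were seen. Alternatives were quantile normalisation, median centring, pseudocounts of 1 and 64, other filters and probe set rules, other variance models, a replicate block and leaving out each array. Classes of level were added after seeing the data.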

Additional observations from a re-analysis of the deposited data

Results flagged for a closer look

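For 7 of the 10 genes both lung-like KA/KA arrays read above WT 2 while KA/KA 1 read below WT 1, as did 17.4% of all genes. These directions were common among bright genes. In the brightest class (mean log2 signal of 13 or more), 87.8% of genes read higher on both lung-like KA/KA arrays. In the same class 89.0% read lower on KA/KA 1, with median differences of 0.56 and -0.46. Of the 6 members in that class, 4 read lower on KA/KA 1: Ctsb, Ctsl, Ctss and Ctsz. The lung-like difference (mean of KA/KA 2 and KA/KA 3 minus WT 2) less that of the marrow-like pair was 3.51 for Ctsk, 2.22 for Ctse, 2.15 for Ctsl, 1.98 for Ctss, 1.82 for Ctsb, 1.57 for Ctsz and 1.12 for Ctsh, in log2 units. This difference between the sets was not tested. After quantile normalisation 5 of the 10 kept opposite signs (17.9% of all genes): Ctsh, Ctsk, Ctsl, Ctss and Ctsz. Ctsb and Ctse then read higher on KA/KA 1 than on WT 1 by 0.14 and 0.030. With the mean of a gene's kept probe sets in place of the brightest, 5 of the 10 were lower on KA/KA 1, and Ctsb and Ctsz were higher there by 0.13 and 0.047.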

How the results depend on the processing

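In the fit blocked on array set, the number of genes that passed limma's test was 0 to 6 when each array was left out. Without KA/KA 2 it called Ccl8, Marco, Ms4a4b, Prg2, Retnla and Rnase2a, and without KA/KA 3 it called Xist alone; these were named after the values were seen. Over 5 arrays 0 genes passed in every alternative but the replicate block, where 1 did, Xist (adjusted p = 0.0114), and no member passed in any alternative. KA/KA and WT share the numbers 1 and 2 in the labels without a stated pairing. Deviations from the group means correlated across genes at 0.88 for number 1 and 0.65 for number 2, which follows the array sets. The 2 WT arrays deviated from their mean by equal amounts in opposite directions, so these correlations are not separate checks. With the replicate block Acp2 stood at 0.94. After quantile normalisation 3 members were over 1 log2 unit on both lung-like KA/KA arrays, against 6 before it, and 6 to 9 were over it with 1 of these arrays left out. With a pseudocount of 64 the number was 5, and with the mean of a gene's kept probe sets 4. That mean put the lung-like difference at 0.84 for Acp2 and 1.11 for Ctse. Members apart by over 1 between the array sets numbered 3 to 6 with 1 array left out, against 4 with all.

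Leaving out 1 array turned the sign of some estimates. Over 5 arrays they ran from -1.42 to 2.53 for Ctse, -0.034 to 1.52 for Ctsh and -0.085 to 1.45 for Ctsl. The sign turned without KA/KA 1 (-0.025) and without WT 2 for Ctse, without WT 1 for Ctsh and without KA/KA 2 for Ctsl. With the block they ran from -0.24 to 1.58 for Ctsb, -0.27 to 1.95 for Ctse, -0.31 to 0.81 for Ctsh, -0.046 to 3.47 for Ctsk, -0.82 to 1.33 for Ctsl, -0.42 to 1.56 for Ctss and -0.42 to 1.15 for Ctsz. Without WT 2 the block estimate rests on the marrow-like pair, where the sign turned for these 7 genes; for Ctsl it turned without KA/KA 2 as well. Acp2, Ctsc and Ctsd stayed above 0 in both fits under all alternatives run. All members tested stayed higher on both lung-like KA/KA arrays under the 6 scaling, pseudocount and probe set alternatives; 7 of the 10 could be read without probe sets shared between transcripts.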
